A study of Mus musculus with 7 samples.

Results

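Cyclin dependent kinase inhibitors were examined in the livers of newborn mice that lack glycerol kinase, the enzyme that phosphorylates glycerol. The family was taken as every probe set whose platform annotation gives Cdkn1a, Cdkn1b, Cdkn1c, Cdkn2a, Cdkn2b, Cdkn2c, Cdkn2d or Cdkn3 as its only gene symbol. That rule found 10 probe sets for the 8 genes, among 45101 probe sets on the array and 18194 genes named by a single symbol. Cdkn1a and Cdkn1b had 2 probe sets each and the other genes had 1. Livers of 4 glycerol kinase knockout pups were set against livers of 3 wild type pups, age-matched littermates. All 7 pups were male C57BL/6J mice at day of life 1, each liver was extracted on its own, and the knockout construct is not given in the labels used here. Knockout pups show no signs of the deficiency at this age, per the series' design text, so the comparison concerns transcripts before overt disease. The family was selected on earlier results of these same arrays, the differences in intensity between knockout and wild type, so those differences are given for its members as a description and not as a test.

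These proteins hold back the kinases that drive the cell cycle. The Cip/Kip proteins p21 (Cdkn1a), p27 (Cdkn1b) and p57 (Cdkn1c) bind complexes of cyclins with their kinases, most of all those of Cdk2. The Ink4 proteins (Cdkn2a, Cdkn2b, Cdkn2c and Cdkn2d) bind Cdk4 and Cdk6 and keep D-type cyclins off them, and the Cdkn2a locus also encodes Arf, which stabilises p53. Cdkn3 is a phosphatase that removes the activating phosphate of Cdk2, and its transcript is best known from dividing cells. Newborn liver is still a site of red cell production, so hepatocytes and dividing blood cell precursors both contribute RNA to it.

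RefSeq promoter windows (250 bases before to 50 after a start site, GRCm38.p6) were given for 7 of the 8 genes, 10 windows in all; Cdkn1c was the gene without one. The windows printed here belong to Cdkn1a, where a p53 consensus site was found, and to Cdkn3 and Cdkn2d. Each is written 5′ to 3′ on the strand of its gene. Capitals mark a pair of adjoining p53 consensus decamers in the first, each CCAAT in the second and each GGGCGG in the third, on either strand.
Cdkn1a, upstream start, chr17:29090729-29091028, plus strand: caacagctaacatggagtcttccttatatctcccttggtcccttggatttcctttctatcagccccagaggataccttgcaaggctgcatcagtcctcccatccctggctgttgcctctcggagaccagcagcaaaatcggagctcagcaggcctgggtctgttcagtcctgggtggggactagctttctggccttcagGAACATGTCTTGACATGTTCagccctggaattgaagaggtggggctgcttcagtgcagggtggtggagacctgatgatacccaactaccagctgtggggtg
Cdkn3, chr14:46760291-46760590, plus strand: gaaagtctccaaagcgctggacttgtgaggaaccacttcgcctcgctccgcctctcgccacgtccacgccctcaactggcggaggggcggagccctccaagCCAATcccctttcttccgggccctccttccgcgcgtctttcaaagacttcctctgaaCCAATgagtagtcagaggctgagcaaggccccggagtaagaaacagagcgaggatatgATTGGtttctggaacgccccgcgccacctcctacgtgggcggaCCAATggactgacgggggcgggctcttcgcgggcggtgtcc
Cdkn2d, chr9:21291160-21291459, minus strand: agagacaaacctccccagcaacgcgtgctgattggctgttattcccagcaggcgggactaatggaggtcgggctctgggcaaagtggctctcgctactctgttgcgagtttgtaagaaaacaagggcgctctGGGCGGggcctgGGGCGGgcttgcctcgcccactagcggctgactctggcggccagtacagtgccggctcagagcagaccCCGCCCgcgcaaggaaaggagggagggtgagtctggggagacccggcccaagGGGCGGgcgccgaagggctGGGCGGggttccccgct
The p53 decamer pair, searched with at most 1 letter off the consensus and found on both strands at once, lay from -51 to -32 relative to the upstream Cdkn1a start, and 0.0883% of 32851 windows of the same length held one. The window of the other Cdkn1a start held none. The Cdkn3 window held 4 CCAAT boxes and 4 GGGCGG boxes; 37.4% of all windows held at least 1 CCAAT and 1.06% held 4 or more. The Cdkn2d window held 5 GGGCGG boxes, against at least 1 in 35.7% and 4 or more in 5.49% of all windows. None of these boxes overlapped another in the windows shown. The motifs were chosen with earlier results of these arrays known, and the p53 motif with its sequence in view. The shares of all windows are therefore descriptions and not tests. Such matches describe letters in these windows and do not show that a factor is bound there.

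All 7 family probe sets that were bright enough to be tested were lower on average in knockout livers. A probe set was tested when its mean log2(intensity + 16) over all arrays exceeded the median of all, which corresponds to an intensity of about 98.0. Those 7 covered 6 genes, and Cdkn2a, Cdkn2b and the second Cdkn1b probe set lay below that limit. In limma's fit over all 22518 tested probe sets, 2 of the 7, Cdkn3 and Cdkn2d, lay under an adjusted p of 0.05 and lower in knockout, and 0 lay higher. Of all tested probe sets 4.24% lay under it, 1.89% lower and 2.35% higher in knockout; lower ones made up 44.6% of those calls, or 26.4% under median scaling. In 5 of the 7, every knockout array lay below every wild type array, a state found in 11.8% of all tested probe sets, whereas every knockout array lay above every wild type array in 0 of the 7 and in 9.4% of all. The median log2 fold change of the 7 was -0.76, against -0.03 over all tested probe sets, of which 54.2% were lower in knockout. Without 1 array the count of 2 ran from 0 to 3: Cdkn3 left it without wild type 3, Cdkn2d left it without any array but knockout 3, and both Cdkn1a probe sets joined it without knockout 1. Cdkn2d also left it under median scaling, both looser filters, eBayes without a trend and the replicate block. Since the family was chosen with this contrast known, nothing is read from these counts.

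**Figure D1:**
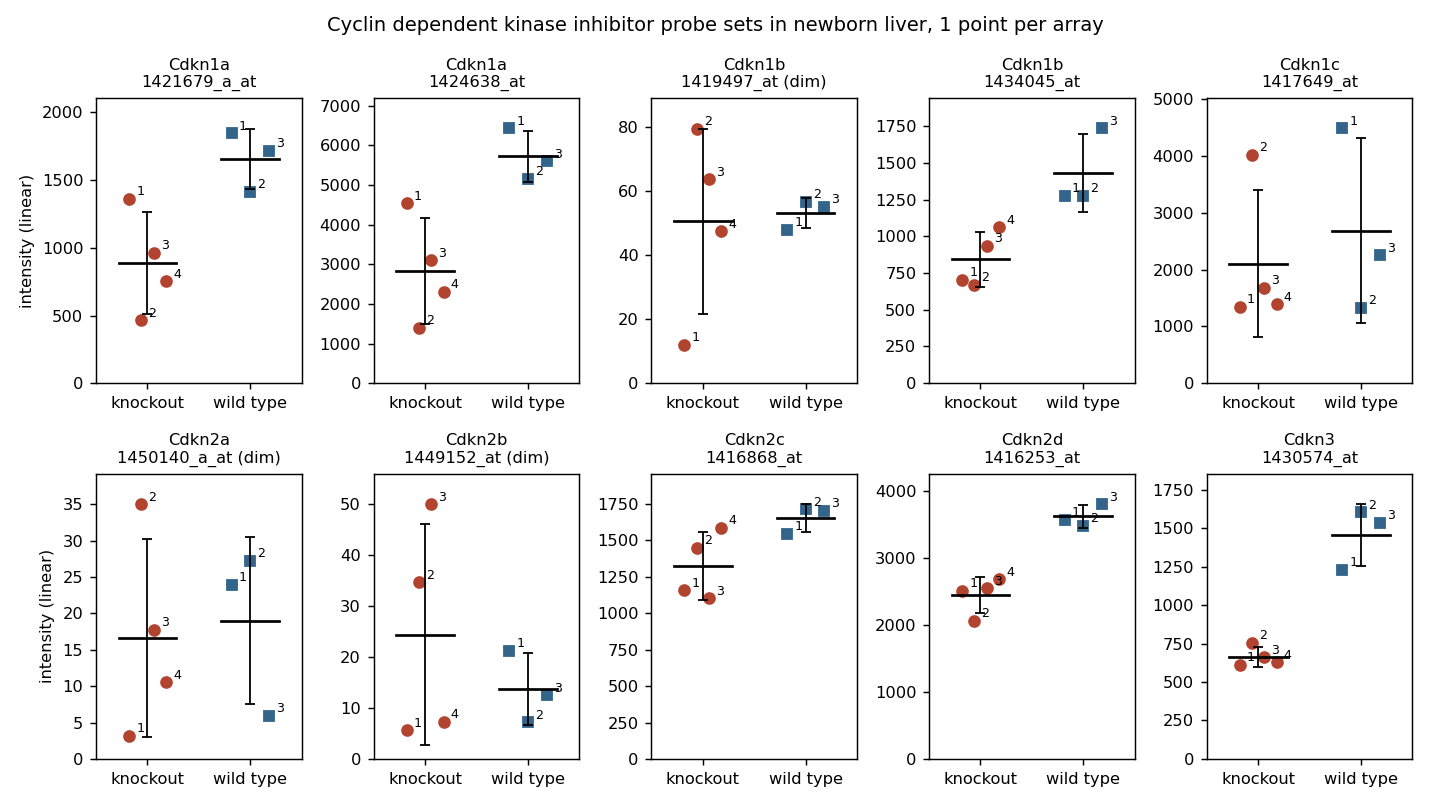
Intensity (linear scale, 1 point per array, numbers as in the sample titles) of the 10 probe sets in 4 knockout arrays (circles) and 3 wild type arrays (squares); lines are means and bars are SDs. Both Cdkn1a probe sets, the brighter Cdkn1b probe set, Cdkn2d and Cdkn3 show groups that do not overlap, and panels marked dim lie below the filter.

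Cdkn1a was the Cip/Kip gene that varied most among knockout livers without overlap of the groups. Its brighter probe set, 1424638_at, had intensities of 4536.1, 1402.6, 3102.6 and 2300.1 in knockout arrays 1 to 4, against 6426.4, 5162.6 and 5593.8 in wild type arrays 1 to 3. Knockout 1 came close to the lowest wild type array, and knockout 2 was the lowest of all. The knockout arrays thus spanned a 3.23-fold range and the wild type arrays a 1.25-fold range. The log2 fold change was -1.13 ± 0.32 (SE), 2.19-fold lower in knockout.

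The other Cdkn1a probe set, 1421679_a_at, gave intensities of 1363.8, 465.5, 961.1 and 753.6 in knockout arrays 1 to 4, against 1846.0, 1414.0 and 1718.5 in wild type arrays. It ordered the knockout arrays in the same way, with a log2 fold change of -0.99 ± 0.30. The probe sets measure the same RNA samples, and over the 7 arrays their log2 values correlated at r = 0.997, or at 0.994 after each group's mean was subtracted. Without knockout 1 the log2 fold changes were -1.40 for the brighter probe set and -1.22 for the other.

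Cdkn1b, which encodes p27, was lower in knockout by the brighter of its probe sets. Probe set 1434045_at had intensities of 703.2, 668.4, 937.4 and 1062.0 in knockout arrays 1 to 4, against 1275.9, 1277.9 and 1734.1 in wild type arrays. The groups did not overlap, wild type 3 stood above the other wild type arrays, and knockout 4 was nearest to wild type. Its log2 fold change was -0.76 ± 0.20. The second Cdkn1b probe set, 1419497_at, was dim at 12.0 to 79.6 in knockout and 47.9 to 56.7 in wild type arrays, and its groups overlapped. It was not tested because of its intensity.

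Cdkn1c, which encodes p57 and is expressed from the maternal chromosome, differed between livers of the same group more than between groups. Its intensities were 1340.9, 4023.0, 1676.3 and 1385.5 in knockout arrays 1 to 4, against 4483.4, 1328.7 and 2251.3 in wild type arrays. One liver of each group, knockout 2 and wild type 1, was high, and the others lay between 1328.7 and 2251.3. The range within a group was 3.00-fold in knockout and 3.37-fold in wild type. The log2 fold change was -0.33 ± 0.44, and it turned to 0.12 without wild type 1.

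Among the Ink4 genes, Cdkn2d was the one whose groups did not overlap. Cdkn2d encodes p19 Ink4d, and its intensities were 2507.9, 2061.5, 2545.8 and 2674.7 in knockout arrays 1 to 4, against 3566.8, 3477.3 and 3796.8 in wild type arrays. The groups stood clearly apart, with ranges of 1.30-fold in knockout and 1.09-fold in wild type. The mean was 2447 ± 267 in knockout and 3614 ± 165 in wild type (SD, n = 4 and 3), and the log2 fold change was -0.56 ± 0.13. Over the 17 alternative settings it ran from -0.61 to -0.49.

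Cdkn2c, which encodes p18, had intensities of 1157.4, 1450.5, 1104.2 and 1587.1 in knockout arrays 1 to 4, against 1544.5, 1712.8 and 1705.0 in wild type arrays. Knockout 4 overlapped wild type 1, while knockout 1 and 3 were the lowest. The log2 fold change was -0.33 ± 0.16. Cdkn2a (p16 and Arf) and Cdkn2b (p15) were at the dim end of the array. The single Cdkn2a probe set read 3.2 to 35.0 in knockout and 5.9 to 27.2 in wild type arrays, and that of Cdkn2b read 5.6 to 50.0 in knockout and 7.2 to 21.2 in wild type arrays. Both overlapped between groups and neither was tested because of its intensity, so nothing is concluded about a difference. The Cdkn2a probe set carries 1 symbol for the locus, and which of its products it reports was not examined.

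Cdkn3 was the member whose groups stood furthest apart relative to the SE of its fold change. Its intensities were 609.7, 755.2, 661.4 and 627.1 in knockout arrays 1 to 4, against 1228.2, 1603.9 and 1534.6 in wild type arrays. All 4 knockout livers were alike, within a 1.24-fold range, and the highest of them was well below the lowest wild type liver. The mean was 663.4 ± 64.9 in knockout and 1456 ± 200 in wild type (SD, n = 4 and 3), and the log2 fold change was -1.11 ± 0.15, 2.16-fold lower in knockout. Over the 17 alternative settings it ran from -1.23 to -1.04.

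**Figure D2:**
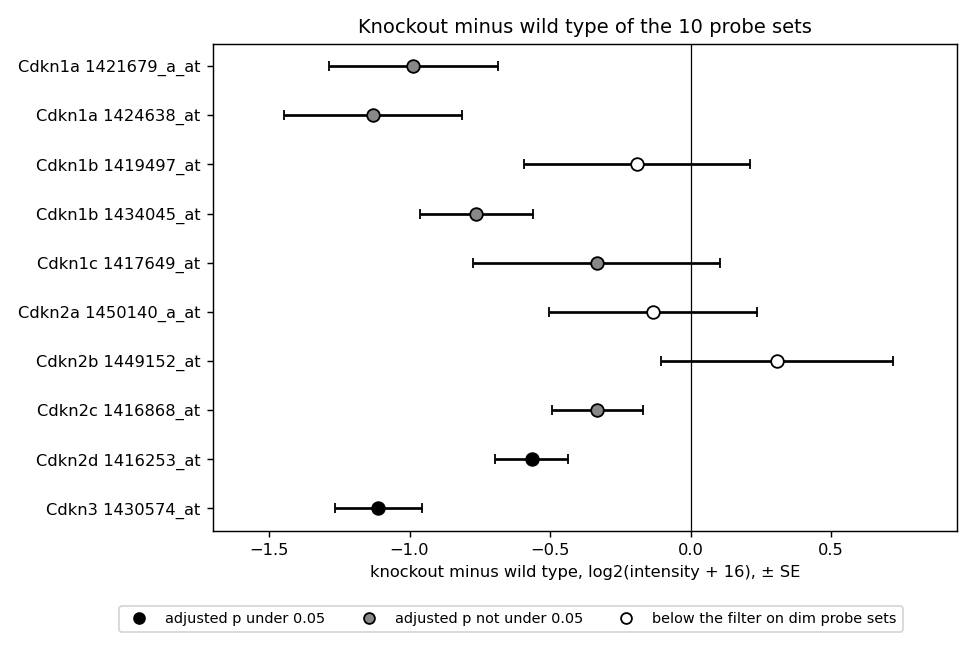
Knockout minus wild type on the log2(intensity + 16) scale for the 10 probe sets, with SEs from limma (horizontal axis); black points lay under an adjusted p of 0.05, grey points did not, and white points lay below the filter and come from the fit without it. Cdkn3 at -1.11 and Cdkn2d at -0.56 are black, and Cdkn2b at 0.31 is the only point above 0.

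Markers of dividing cells and of red cell precursors were lower in knockout, as the family was. In bulk liver, fewer cells of a type and less RNA per cell cannot be told apart. All 6 markers of dividing cells (Mki67, Top2a, Aurkb, Bub1, Cenpf and Kif11) were lower in knockout, and Cenpf, a kinetochore protein, fell at a log2 fold change of -0.68 ± 0.13 (limma adjusted p = 0.0217). Their median log2 fold change was -0.41 and their summed intensity was 16810.2 to 19577.7 in knockout and 24116.0 to 25714.8 in wild type arrays. All 5 measured red cell precursor markers were lower too, though Klf1 was not under median scaling, with a median of -0.39 and sums of 41230.9 to 45849.7 in knockout and 51878.7 to 56417.7 in wild type arrays, and 2 of them, Slc4a1 and Rhag, fell, calls that median scaling ended. Cdkn3 at -1.11 lay below each of these 11 markers. Quantile normalization had 1 call among red cell precursor markers and 2 among dividing cell markers. Over all genes tested by their brightest probe set 1.67% fell and 3.09% rose, and 54.2% of all tested probe sets were lower. The marker lists were drawn up with earlier results of these arrays known. The part that such cells had in the values of Cdkn3 and Cdkn2d was not tested.

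Hepatocyte markers overlapped between groups, as did the sums of the neutrophil, macrophage, B cell, megakaryocyte, stellate and bile duct lists. All 6 hepatocyte markers passed the filter, and their sums were 157380.1 to 209499.0 in knockout and 165706.3 to 186426.8 in wild type arrays. The 5 endothelial markers were lower on average and none passed the threshold. Their sums were 6755.9 to 12089.1 in knockout and 12422.7 to 14904.6 in wild type arrays. Their mean log2 levels overlapped, at 10.91 in knockout 4 and 10.86 in wild type 1. The T cell list summed to 365.0 to 679.8 in knockout and 1070.6 to 1878.6 in wild type arrays, with Cd3d, Cd3e and Cd3g below the filter. Of its tested genes Itgae, an integrin of T cells in epithelia, fell at -1.99 ± 0.34 (limma adjusted p = 0.0157). Itgae alone read 180.5 to 528.1 in knockout and 828.9 to 1614.7 in wild type arrays. The other tested gene, Cd8a, overlapped between groups, at -0.40 ± 0.24 (limma adjusted p = 0.378). The part of these cells in the family's values was not tested. Knockout 3 stood apart in the mean log2 level of 3 pancreatic markers, at 9.38 against 6.60 to 7.18 in the other arrays. That rested on Cpa1 and Prss2, at 497.9 and 316.3 against at most 17.8 and 78.5 in the other arrays. Over all arrays these genes lay below the filter. The tested marker, Cela1, read 1704.2 in knockout 3 and 1907.4 in wild type 2. The family's knockout 3 values lay inside the range of the other knockout arrays except for the lowest Cdkn2c and the highest Cdkn2b value.

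Members correlated with the markers of these cells in differing ways once group means were subtracted. Correlations over 7 arrays are descriptions, since the points share the group difference and the scaling of the arrays. Without subtraction, r with dividing cell markers was 0.886 for Cdkn3, 0.88 for Cdkn1b, 0.877 for Cdkn2c and 0.828 for Cdkn2d. It was 0.464 for the brighter Cdkn1a probe set and 0.31 for Cdkn1c. Subtracting group means leaves little information in 7 arrays. With group means subtracted, Cdkn3 correlated with the mean log2 level of red cell precursor markers at r = 0.820 and with that of dividing cell markers at 0.219. Cdkn2c correlated with dividing cell markers at 0.784 and with hepatocyte markers at -0.829. Cdkn1a, by its brighter probe set, correlated with dividing cell markers at -0.725 and with red cell precursor markers at -0.136. Cdkn2d stood near 0 with both, at 0.024 and -0.075, Cdkn1b at 0.545 and 0.114, and Cdkn1c at 0.219 and -0.532. Between members on the same scale, Cdkn2d correlated with Cdkn1b at 0.781 and with the brighter Cdkn1a probe set at 0.641, and Cdkn3 with that Cdkn1a probe set at -0.663.

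**Figure D3:**
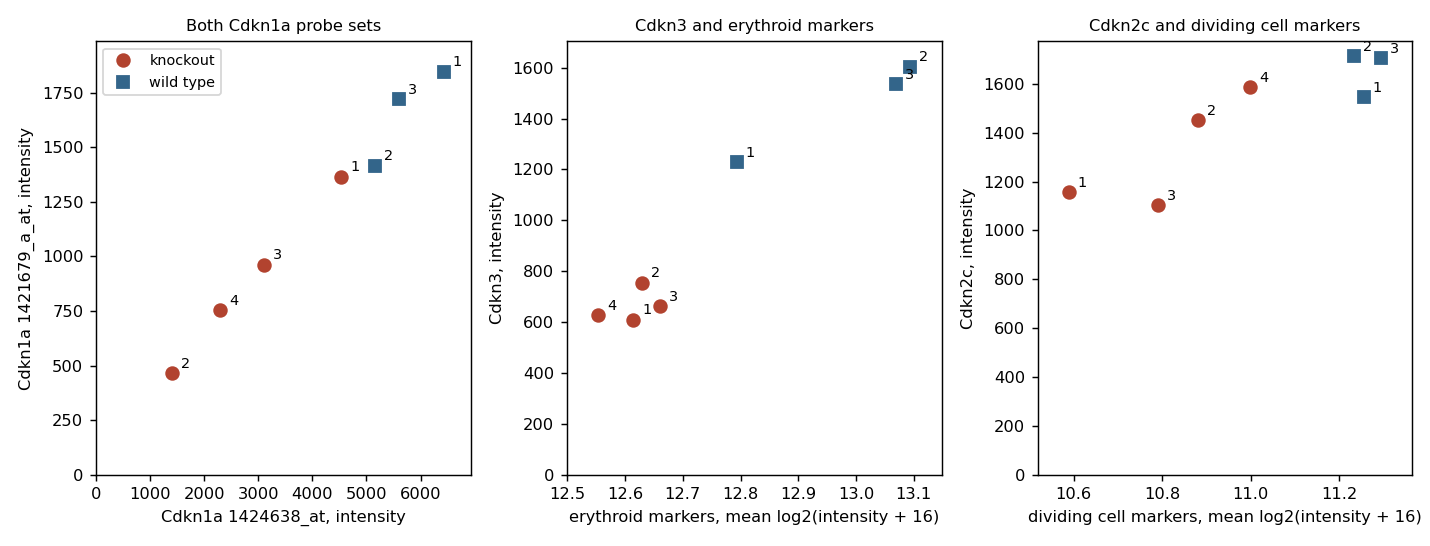
One point per array, numbered as in the titles, for 4 knockout (circles) and 3 wild type (squares) arrays. Left, intensities of both Cdkn1a probe sets, which rank the knockout arrays 1, 3, 4, 2; middle, Cdkn3 intensity against the mean log2(intensity + 16) of red cell precursor markers; right, Cdkn2c intensity against that of dividing cell markers.

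Transcripts with the most similar profile over the 7 arrays were sought among the brightest probe sets of 11158 other genes. The closest to Cdkn1a was Retreg1, a receptor for breakdown of the endoplasmic reticulum by autophagy, at r = 0.992 and 0.982 with group means subtracted. Retreg1 read 13555.0, 2767.7, 7510.8 and 5998.4 in knockout arrays 1 to 4, against 16977.5, 15730.1 and 17669.2 in wild type arrays, which is the order of Cdkn1a among knockout livers. Carmil1, a regulator of actin filament ends, and Oat, the mitochondrial ornithine aminotransferase, followed at r = 0.981 and 0.978. For Cdkn1b they were Ubxn2b, Tcim and Tnfrsf1b, the second receptor of tumour necrosis factor, at r = 0.982, 0.980 and 0.978. For Cdkn1c they were Ica1, Ehd2 and Nlrx1, at r = 0.984, 0.978 and 0.972, all high in knockout 2 and wild type 1.

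The closest profile to Cdkn2c was that of Ifit2, an interferon-induced gene, at r = 0.997, followed by Fam111a at 0.981 and Npat, which drives histone gene transcription in S phase, at 0.963. Cdkn2d was matched by Tbc1d15, an activator of Rab GTPase hydrolysis, at 0.995, by the kinase gene Hipk3 at 0.994 and by Agap3 at 0.989. Cdkn3 was matched by Alad, an enzyme of heme synthesis, at 0.990, by the proteasome gene Psmc2 at 0.988 and by Atpif1, the inhibitor of the mitochondrial ATP synthase, at 0.988. Alad read 5310.2, 6216.9, 5424.7 and 5362.3 in knockout arrays 1 to 4, against 7512.7, 9173.2 and 8269.2 in wild type arrays. With group means subtracted, these 9 correlations ranged from 0.865 for Psmc2 to 0.998 for Ifit2. Among so many genes and 7 arrays, high values of r arise readily.

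Among the cyclins, their kinases and the regulators listed with them, Ccne2 alone passed the threshold. Each gene was read from its brightest probe set, and other tested probe sets of some genes, such as Cdk4 and Wee1, had the opposite sign. Of 5 D-type cyclins and their kinases 0 passed, and their median log2 fold change was -0.02. The values of smallest p were Cdk6 at 0.27 ± 0.18 and Ccnd1, cyclin D1, at -0.53 ± 0.27 (limma adjusted p = 0.406 and 0.293). All 5 genes of the E and A cyclins with Cdk2 were lower, or 4 under median scaling, with a median of -0.32, and Ccne2 fell. Cyclin E2, its product, activates Cdk2 at entry into S phase; Ccne2 read 397.3 to 585.6 in knockout and 707.3 to 1214.0 in wild type arrays, at -0.93 ± 0.22 (limma adjusted p = 0.0427). All 6 measured genes of the B cyclins with Cdk1 were lower, with a median of -0.23, and 0 passed; Ccnb2, cyclin B2, came nearest at -0.50 ± 0.12 (limma adjusted p = 0.0510), with limma adjusted p = 0.0485 under quantile normalization, 0.0207 with array weights, 0.117 under median scaling and 0.121 with the replicate block, and Cdc25c, a phosphatase that activates Cdk1, was at -0.44 ± 0.20. The 3 genes of the kinase that activates Cdks did not pass, with Ccnh at -0.16 ± 0.16, where 2 other probe sets had the opposite sign, and Mnat1 at -0.15 ± 0.18. As background, 54.2% of all tested probe sets were lower in knockout, and 1.67% of the 11159 genes tested by their brightest probe set fell and 3.09% rose. Nothing is read from so small a count of calls.

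Downstream of the kinases, Rb1 and E2f2 fell. Rb1, the retinoblastoma protein that Cdk4 and Cdk6 phosphorylate, read 1432.6, 1346.1, 1267.6 and 1315.8 in knockout arrays 1 to 4, against 1953.0, 2645.6 and 2638.7 in wild type arrays. The knockout values lay close together and below all wild type values, and the log2 fold change was -0.83 ± 0.15 (limma adjusted p = 0.0177). The related pocket proteins did not pass, so 1 of 3 did. Of 10 E2F factors and partners 8 were lower, or 7 under median scaling, and 1 passed, E2f2. Over all genes tested by their brightest probe set 1.67% fell and 3.09% rose. Other tested probe sets had the opposite sign for E2f1, E2f3, E2f5 and E2f8 but not for E2f2, E2f6 and Tfdp2. E2f2, an activator of S phase genes, read 3764.0 to 4453.8 in knockout and 5849.5 to 6251.4 in wild type arrays, at -0.56 ± 0.11 (limma adjusted p = 0.0254). Rb1 missed the threshold in 4 of 17 alternative settings, E2f2 in 8 and Ccne2 in 10; all 3 missed it when wild type 2, wild type 3 or knockout 4 was left out, Rb1 and E2f2 with the replicate block, and E2f2 and Ccne2 under median scaling.

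A list of 12 genes held parts of ubiquitin ligases that destroy the inhibitors and genes listed with them, such as Pcna and Cks2. Of these 11 were lower, or 10 under median scaling, with a median of -0.20 and 0 past the threshold. Of other tested probe sets, 3 of 5 for Skp2 and the 1 each for Cks1b and Cks2 had the opposite sign. The 5 others of Dtl did not. Dtl, a substrate receptor that targets p21, was at -0.65 ± 0.17 (limma adjusted p = 0.0632) and its scaffold Cul4a at -0.36 ± 0.15 (limma adjusted p = 0.197). Of 19 transcriptional regulators of Cip/Kip genes 13 were lower, or 10 under median scaling, and 0 passed. Cebpa, a hepatocyte factor that stabilises p21, was at 0.73 ± 0.27 (limma adjusted p = 0.147) and Tgfbr1, a receptor of transforming growth factor beta, at -0.44 ± 0.17. Among 13 tested regulators of the Ink4 locus 0 passed. Over all genes tested by their brightest probe set 1.67% fell and 3.09% rose, so nothing is read from the lists without calls. Of all tested probe sets 54.2% were lower in knockout. Tbx3, a repressor of Arf, was at 1.09 ± 0.41 (limma adjusted p = 0.157), or 1.51 and past the threshold without knockout 4 and with the replicate block, and Ets1, an activator of p16, at -0.42 ± 0.21.

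Other p53 targets, set beside Cdkn1a because p53 is its best known activator, moved in both directions. Of 18 tested genes of p53 targets and p53 control 4 fell and 2 rose, or 3 and 2 under median scaling, with a median of -0.31. Of all genes tested by their brightest probe set 1.67% fell and 3.09% rose. The p53 list was drawn up with earlier results of these arrays known. Trp53inp1, a stress-induced partner of p53, read 2545.6, 1399.5, 4159.3 and 3390.4 in knockout arrays 1 to 4, against 8434.7, 8963.5 and 12034.0 in wild type arrays. It fell at -1.86 ± 0.31 (limma adjusted p = 0.0142), with knockout 2 its lowest array, as for Cdkn1a, whereas knockout 1 was not its highest knockout array. Gadd45a and Btg2, both growth arrest genes, fell at -1.26 ± 0.21 and -1.13 ± 0.16, and Sesn1, a stress gene that restrains growth signalling, at -1.19 ± 0.26 (limma adjusted p = 0.0122, 0.00644 and 0.0380). Perp, a membrane protein gene of epithelia and cell death, rose at 1.11 ± 0.18, and Fas, a death receptor, at 1.91 ± 0.39 (limma adjusted p = 0.0114 and 0.0295). Trp53, Bax and Ccnb1 had no probe set with a single symbol. Without wild type 3, of these 6 genes Btg2 alone passed. Gadd45a also missed the threshold without wild type 2, Fas without wild type 1, wild type 2, knockout 2 or knockout 4, and Sesn1 without wild type 1, knockout 1, knockout 2 or knockout 3. Sesn1 missed it under median scaling (0.0504) and without the trend, and both Sesn1 and Fas without the filter.

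None of the imprinted neighbours of Cdkn1c passed the threshold. Of 7 tested genes of that cluster 4 were higher and 3 lower in knockout, or 6 and 1 under median scaling, with a median of 0.02. Over all genes tested by their brightest probe set 1.67% fell and 3.09% rose, so nothing is read from the lack of calls. Phlda2, a growth-restraining gene of placenta that is maternally expressed like Cdkn1c, read 323.7, 318.6, 401.9 and 89.9 in knockout arrays 1 to 4, against 94.7, 75.4 and 15.1 in wild type arrays. Knockout 4 fell inside the wild type range, and the log2 fold change was 1.97 ± 0.53 (limma adjusted p = 0.0659). Phlda2 passed without knockout 4, at 2.41 (limma adjusted p = 0.0348), with array weights and with the replicate block. Slc22a18, a transporter gene of the same cluster, was at 0.72 ± 0.38, and Igf2 was at 0.02 ± 0.17. Wild type 1 was the highest wild type array for both Phlda2 and Cdkn1c, while knockout 2, the highest knockout array for Cdkn1c, was not so for Phlda2.

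**Figure D4:**
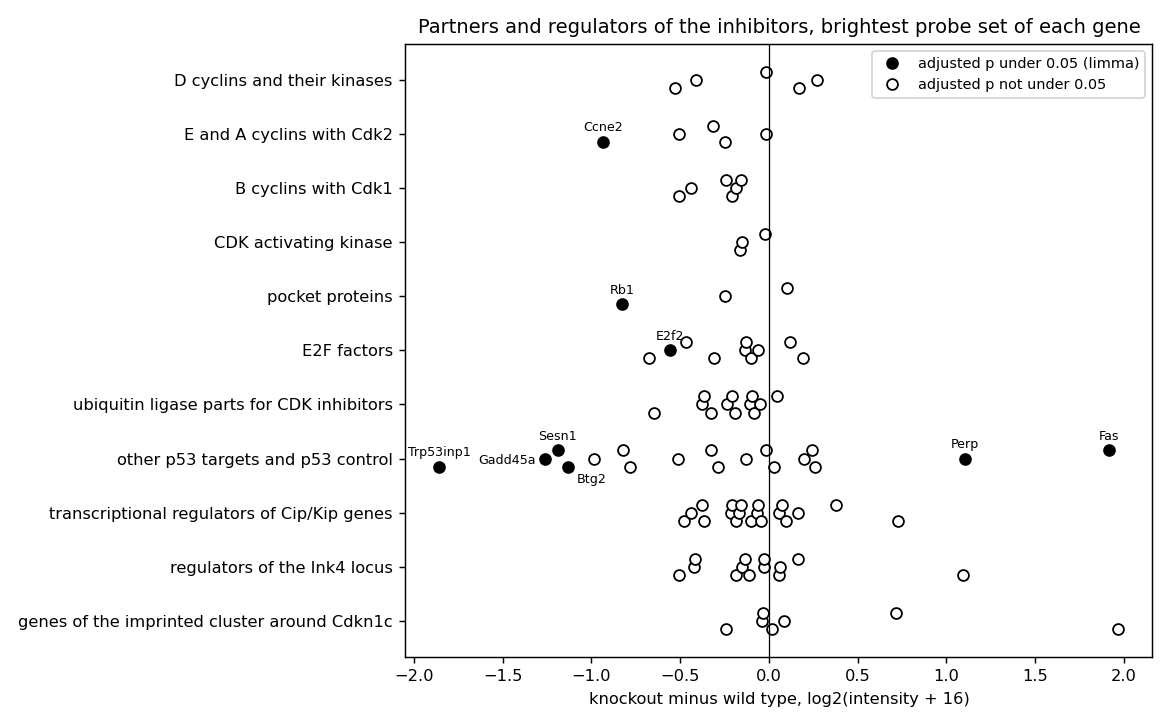
Knockout minus wild type on the log2(intensity + 16) scale (horizontal axis) for the tested genes of 11 lists of partners and regulators, 1 point per gene by its brightest probe set; filled points passed limma's adjusted p of 0.05 and are named. Over all lists 7 genes fell and 2 rose of 101 tested, against 1.67% and 3.09% of all genes tested by their brightest probe set. Of the 9 named genes 6 were among other p53 targets. All lists were drawn up with earlier results of these arrays known, so nothing is read from these counts.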

How the data were processed

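Liver RNA of 4 knockout and 3 wild type pups was hybridised to 1 Affymetrix Mouse Genome 430 2.0 array per liver. The p-values set the group difference against the spread between arrays of separate animals. With 1 array per liver, that spread does not separate animals from extraction and hybridisation. The deposited values are linear intensities; the submitters' processing notes name GCOS, with no version, and how probes were summarised was not stated. Each array's deposited intensities averaged 500.003 once the extreme 2% at each end were trimmed, so the authors had scaled arrays to 1 target; their medians ran from 92.7 to 108.3. Precision is limited by having 7 arrays.

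Values were taken as log2(intensity + 16), without further scaling because array medians on that scale lay within 0.2. Of 45101 probe sets, 64 controls were dropped and those with a mean above the median were tested, 22518 in all. The limma package (3.58.1, R 4.3.3) compared knockout with wild type using lmFit and a trended eBayes, with Benjamini-Hochberg adjustment over these probe sets and a threshold of 0.05. The scale understates changes of dim probe sets, and levels are not compared between probe sets. Plots used matplotlib 3.10.9. The fit was tested on simulated data.

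The platform annotation named 34958 probe sets by 1 symbol, left 9211 unnamed and gave 932 more than 1; by gene ID, 34754 of those with 1 symbol were in RefSeq for GRCm38.p6. Members, lists and motifs were chosen with earlier results of these data known, and the p53 motif with its sequence in view. Every member probe set is given. From each list the text names up to 4 called genes of smallest p per direction, or 2 where none was called, and for each tested member the 3 genes of highest Pearson r. Igf2, Klf1 and the marker genes given with values were added after those were seen. The targeted transcript is not reported here and so did not check the labels. No litter, batch or scan date was used. Between arrays r ran from 0.930 to 0.985, and 0 pairs were identical. Alternatives were other offsets (1, 32 and 64), median or quantile scaling, no filter or one at the 25th percentile, eBayes without a trend, array weights, the replicate block, each array left out, a stricter threshold, and the probe set of smallest p.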

Additional observations from a re-analysis of the deposited data

Results flagged for a closer look

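Of 51 probe sets of the family and of genes named with it, 5 had 1 knockout array far from the other 3, judged by its gap to the nearest over the whole range of the 4 on the log2(intensity + 16) scale; chance gives about 1 in 20. Phlda2 was lowest in knockout 4, at 89.9 against 318.6 to 401.9 in the other knockout arrays. The rest concerned knockout 2. Ica1 read 328.6 there against 213.2 to 226.2, and Ehd2 read 158.9 against 95.6 to 104.5; both were named for a profile like Cdkn1c, which was also high in that array. Alad read 6216.9 against 5310.2 to 5424.7, and Agap3 read 310.7 against 331.5 to 331.9, a small difference among arrays that were otherwise alike. None of the 10 family probe sets was among them on that scale; on the linear scale, added after the values were seen, Cdkn1c in knockout 2 was, with a gap of 0.875 of the range.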

How the results depend on the processing

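The 7 tested family probe sets stayed lower in knockout in all 17 alternative settings, except Cdkn1c at 0.12 without wild type 1; without 1 array Cdkn1c ran from -0.75 to 0.12. The 2 family probe sets called became 1 under median scaling, without the filter, with the filter at the 25th percentile, with eBayes without a trend and at an adjusted p under 0.01, and 5 with array weights; without 1 array they numbered 0 to 3, with 0 without wild type 3. Over all probe sets 955 were called, against 473 without the filter, 584 without the trend, 2413 with array weights, 142 at an adjusted p under 0.01 and 127 to 1006 without 1 array. Calls over all probe sets numbered 341, 288 and 127 without wild type 1, 2 and 3. They numbered 1006, 514, 930 and 375 without knockout 1, 2, 3 and 4, so they rose without knockout 1 and were fewest without wild type 3. The part that lower power from fewer arrays had in these numbers was not tested. The replicate block called 351 of all, 2 family probe sets (Cdkn3, and Cdkn1b in place of Cdkn2d) and 9 list genes (Tbx3 and Phlda2 in place of Rb1 and E2f2); same-numbered arrays deviated together at r of 0.087, -0.056 and 0.055, so the pairing was not taken as real, and knockout 4, alone in its number, does not enter its fold changes. The 9 list genes called became 17 with array weights and 1 to 8 without 1 array. Of 510 values of single probe sets under alternatives, 440 kept direction and side of the threshold, 52 lost and 17 gained a call and 1 reversed; the cause was not tested.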
